A study of Arabidopsis thaliana with 8 samples.

Results

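The genes described here are 44 members of the auxin response machinery of Arabidopsis thaliana, 15 auxin response factors (ARFs) and 29 Aux/IAA repressors, among 33602 annotated gene models that were counted. They were listed by gene identifier from the families' names, with no rule on their values but with earlier results of these data known. They are ARF1 to ARF4, ARF6 to ARF11, ARF13 and ARF16 to ARF19, and IAA1 to IAA20 and IAA26 to IAA34. ARF5 was not among them and is described with the other genes of the pathway. All 44 identifiers were found in the count tables.

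Transcripts were measured by RNA sequencing in 4 epidermis and 4 mesophyll libraries from cotyledons of wild-type Col-0 embryos. Both tissues were cut by laser microdissection from paraffin sections of seeds, and the plants were untreated and grown in a greenhouse. The study describes the embryos as torpedo-shaped where it gives results and as linear where it gives methods. Each library was amplified from a very small amount of RNA selected for poly(A) tails, without strand information, so that mature microRNAs were not measured. Both groups came from fixed, microdissected tissue, and no uncut embryo was compared here.

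Auxin acts on transcription by removing repressors. Aux/IAA proteins bind ARF proteins on the promoters of auxin-responsive genes and recruit corepressors of the TOPLESS family. When auxin is present, the receptors TIR1 and AFB, which are F-box subunits of an SCF ubiquitin ligase, bind a short degron in the Aux/IAA protein and mark it for destruction, which frees the ARF. Many Aux/IAA genes are themselves auxin-induced. In the embryo this machinery is known for its part in the placement of cotyledons, vascular strands and the root pole, best known from ARF5 (MONOPTEROS) and its partner IAA12 (BODENLOS).

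Levels are read pairs per 1e+06 counted pairs (CPM) scaled by the TMM method, and CPM per kb of gene model where genes are compared with each other. Values for epidermis and mesophyll are listed for replicates 1 to 4 in that order, and means are given ± SD (n = 4). Each fold change is the log2 ratio of epidermis to mesophyll from edgeR's quasi-likelihood test with a term for replicate number. Its standard error (SE) is not given by that test. It was approximated as the absolute log2 fold change divided by the square root of the test statistic. The p-values were adjusted by the Benjamini-Hochberg method over all genes tested, and a gene was called at an adjusted p of 0.05 or less. Per the study's methods a replicate was made of sections from a single plant and the replicates differ in harvest date. The replicate number stands in for that date in the fit, since the labels give no dates, and whether same-numbered libraries of the tissues share a date or plant is not stated.

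Between 27676412 and 36685627 pairs were counted per library, and 3 pairs, taken as the floor of detection, were worth 0.0818 to 0.108 CPM. The 10 epidermis markers summed to between 3331 and 6388 CPM in the epidermis libraries and to between 252 and 748 CPM in the mesophyll libraries. The 8 photosynthetic markers summed to 10399 to 15946 CPM in epidermis and 17229 to 19371 CPM in mesophyll. Marker sums of other cell types differed between the tissues as well, in part with overlap and not for every marker. The 14 endosperm markers summed to 173 to 297 CPM in epidermis against 17.6 to 72.7 CPM in mesophyll, with no pair for PHE1 and PHE2 in any library. Of these markers 10 had a higher and 2 a lower mean in epidermis. SUC5 made up much of the sum, at 92.3 to 201 CPM in epidermis and 16.5 to 60.6 CPM in mesophyll. The study proposes a probable contamination of the epidermis samples by endosperm, and calls them enriched for epidermis. The part of endosperm in the values of genes higher in epidermis, ARF6 among them, was not tested. The 13 seed coat markers summed to 18.0 to 63.7 CPM against 8.07 to 18.4 CPM, with overlap and with no pair for TT16. Among them 7 had a higher and 5 a lower mean in epidermis. The 8 procambium markers were detected in every mesophyll library at a sum of 166 to 291 CPM. In epidermis they summed to 39.6 and 84.8 CPM in replicates 1 and 2 and to 205 and 214 CPM in replicates 3 and 4.

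The first question was which members of the 2 families are transcribed in the embryo cotyledon at all. At least 1 read pair was counted for 40 of the 44 members, and 30 reached 1 CPM in at least 4 of the 8 libraries and were tested. These 30 were 14 of the 15 ARFs and 16 of the 29 Aux/IAA genes. Of all 33602 gene models, 10716 had no pair in any library and 15794 were tested. No pair was counted in any library for ARF13, IAA6, IAA28 and IAA33. The remaining 10 (IAA3, IAA5, IAA7, IAA14, IAA15, IAA19, IAA29, IAA31, IAA32 and IAA34) had pairs in at least 1 library but stayed below the filter. A level below the floor of 3 pairs per library was not detectable, and this floor covers counting error only. IAA14, with 1 pair in total, and IAA7, with at most 1 pair in any library, stayed below that floor.

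The second question was whether any member differs between the 2 tissues. None of the 30 tested members was called, while 171 of all 15794 tested genes were, which is 1.08%. Of the 30, 5 had an unadjusted p of 0.05 or less, against 11.8% of all tested genes. ARF6 and ARF11 were on the side of higher levels in epidermis, where the share of all genes was 6.39%. IAA18, IAA26 and IAA30 were on the side of lower levels in epidermis, where it was 5.43%. Other tests called more. The likelihood ratio test called 3 members (5.2% of all genes), or 2 with no replicate term (4.39%), and DESeq2 called 5 (8.36%), while none was called by the quasi-likelihood test with no replicate term (2.29%). The ranges of the 4 libraries of each tissue did not overlap for 1 of the 30, IAA26, against 10% of all tested genes. The median log2 fold change was 0.28 over the 14 tested ARFs and -0.23 over the 16 tested Aux/IAA genes, beside -0.04 over all tested genes. The Aux/IAA median had no stable sign. It was 0.03 with no replicate term, -0.57 without replicate 3 and -0.69 with no filter on low counts. Of the ARFs 10 had a positive and 4 a negative log2 fold change, and of the Aux/IAA genes 7 a positive and 9 a negative one.

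**Figure D1:**
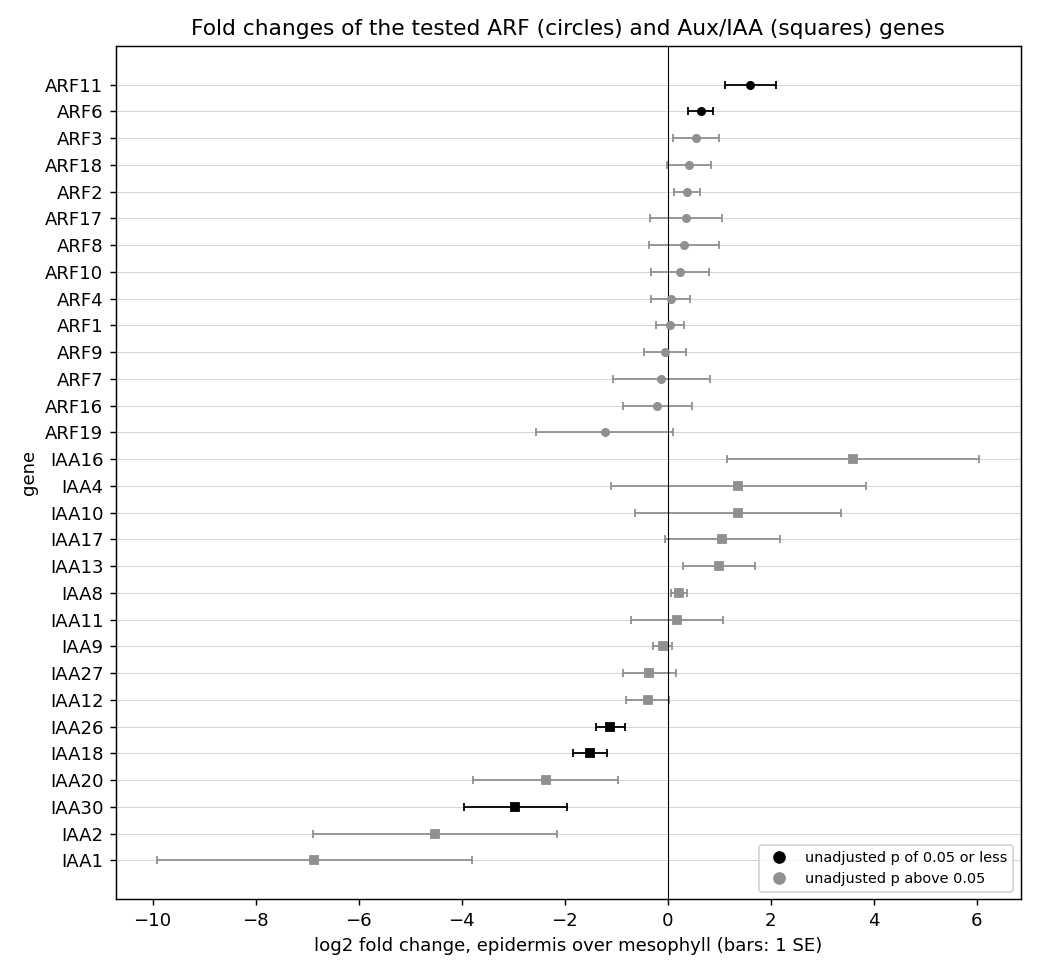
Log2 fold change of epidermis over mesophyll with 1 SE for the 30 tested members, ARFs as circles and Aux/IAA genes as squares, with black symbols where the unadjusted p was 0.05 or less. The 5 black symbols are ARF11 and ARF6 on the right and IAA26, IAA18 and IAA30 on the left, and the longest bars belong to IAA genes with few pairs.

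The activator ARFs of class A, whose middle region is rich in glutamine, switch on auxin-responsive genes once they are freed. ARF6, ARF7, ARF8 and ARF19 are the 4 among the members. In the translated RefSeq coding sequences the 100-residue stretch with most glutamines held 54 of them in ARF6, 59 in ARF7, 33 in ARF8 and 40 in ARF19. The other ARFs held between 5 and 12. The class A sum was between 21.2 and 45.6 CPM per kb in epidermis and between 15.3 and 28.7 CPM per kb in mesophyll. It made up 12.1 to 21.8% of the summed ARF level in epidermis and 11.9 to 16.0% in mesophyll, and these ranges overlapped.

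ARF6 (AT1G30330), which acts with ARF8 in flower maturation and hypocotyl growth, was the most abundant activator per kb among the members. Its level was 51.3, 53.1, 72.3 and 110.9 CPM in epidermis and 39.1, 31.7, 60.0 and 50.02 CPM in mesophyll. Each epidermis library was above its same-numbered mesophyll library, though the numbers were not shown to pair the libraries. Mesophyll 3 was above 2 of the epidermis libraries, so the ranges overlapped. Epidermis was higher by 0.64 on the log2 scale (SE 0.24, unadjusted p = 0.0287, adjusted p = 0.331 with edgeR). ARF8 was at 7.96 ± 4.57 CPM per kb in epidermis and 6.11 ± 2.99 in mesophyll, and the per-kb ratio of ARF6 to ARF8 ranged from 1.01 to 3.99 over the 8 libraries.

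ARF7 and ARF19, which act together in lateral root formation, were low. ARF7 was at 2.90 ± 2.80 CPM per kb in epidermis and 2.43 ± 1.40 in mesophyll, and ARF19 at 1.22 ± 1.09 and 1.70 ± 0.493. In epidermis 4 the ARF7 level was 30.8 CPM while that of ARF19 was 0.134 CPM. In the other 3 epidermis libraries ARF7 lay between 5.72 and 7.76 CPM and ARF19 between 2.95 and 10.06 CPM. Neither was called, with adjusted p of 0.980 for ARF7 and 0.820 for ARF19 in edgeR.

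ARF6 and ARF8 are targets of the microRNA miR167. The mature sequence and both sites are shown because they are the stretch through which these ARF messages are controlled after transcription. The microRNA has its seed (bases 2 to 8) in capitals, and each site has in capitals the bases that match the microRNA's complement. All sequences and coordinates are from RefSeq for TAIR10.1, and are written 5′ to 3′. Both sites lie in coding sequence within 1 exon.
miR167a (chr3:8108090-8108110, + strand): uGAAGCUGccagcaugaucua
ARF6 site (chr1:10686478-10686498, - strand): gAGATCAgGCTGGCAGCTTgt
ARF8 site (chr5:14633841-14633861, + strand): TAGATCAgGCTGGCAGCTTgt
The ARF6 site had 4 mismatches and the ARF8 site 3. With 4 mismatches allowed, 7 of 27444 coding genes (0.0255%) held a match, these 2 members among them. miR167b had the same sequence, miR167d shared the seed, and miR167c had the seed shifted by 1 base. Few pairs were counted for the precursors of miR167. Their counted models were 602, 91, 160 and 1605 bases long for MIR167A, MIR167B, MIR167C and MIR167D. The part of model length in these low counts was not tested. MIR167A had no pair in epidermis and 0, 1.05, 1.09 and 2.80 CPM in mesophyll, and it was not tested.

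Class B holds the ARFs that mostly repress, and it carried most of the ARF transcript. Its sum was between 125.7 and 169.6 CPM per kb in epidermis and between 95.6 and 132.3 CPM per kb in mesophyll. ARF2 (AT5G62000), a repressor that limits cell division and organ size, was highest, at 111, 177, 131 and 181 CPM in epidermis and 108, 73.3, 145 and 140 CPM in mesophyll. The ranges overlapped, and the log2 fold change was 0.38 (SE 0.26, adjusted p = 0.676 with edgeR). Per kb this was 42.7 ± 9.83 in epidermis and 33.2 ± 9.45 in mesophyll, and ARF2 gave 17.3 to 26.3% and 16.3 to 27.1% of the summed ARF level.

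ARF1 (AT1G59750), a close relative of ARF2 with overlapping function, was at 71.5, 59.3, 79.9 and 105 CPM in epidermis and 126.5, 64.9, 54.8 and 71.6 CPM in mesophyll. The highest library was mesophyll 1, and the lowest mesophyll 3. The log2 fold change of 0.04 (SE 0.28, adjusted p = 0.978 with edgeR) had no stable sign, and was -0.01 with no term for replicate number. ARF2 was above ARF1 per kb in 6 of the 8 libraries, the exceptions being mesophyll 1 and 2, with a ratio of 0.603 to 2.11.

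ARF3 (ETTIN, AT2G33860) and ARF4 help to set the lower side of lateral organs. ARF3 was at 43.3, 29.5, 62.1 and 58.9 CPM in epidermis and 43.0, 40.6, 43.6 and 12.3 CPM in mesophyll. The fourth mesophyll library was far below the other 3, and without replicate 4 the log2 fold change went from 0.54 (SE 0.45, adjusted p = 0.748 with edgeR) to 0.02. ARF4 was at 8.69 ± 5.15 CPM per kb in epidermis and 7.65 ± 2.99 in mesophyll.

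ARF2, ARF3 and ARF4 are targets of the trans-acting small RNAs cut from TAS3 transcripts. The window below is the 21 bases of the TAS3A transcript that matched these 3 messages best in a search, and is not a mapped small RNA. It is shown with its matches because the same short stretch recurs in the 3 genes, in ARF3 and ARF4 at 2 places each. Capitals again mark bases that match the window's complement.
TAS3A window (chr3:5862205-5862225, + strand): tttcttgaccttgtaagaccc
ARF2 site (chr5:24913262-24913282, + strand): GGGTCTTgCAAGGTCAAGAAt
ARF3 first site (chr2:14325941-14325961, - strand): GGGTCTTgCAAGGTCAAGAAA
ARF3 second site (chr2:14325821-14325841, - strand): aGGTCTTgCAAGGTCAAGAAA
ARF4 first site (chr5:24309717-24309737, - strand): aGGTCTTgCAAGGTCAAGAAA
ARF4 second site (chr5:24309507-24309527, - strand): GGGTCTTgCAAGGTCAAGAAA
The 5 sites had 1 or 2 mismatches and all lay in coding sequence. With up to 4 mismatches a match was found in 16 of 27444 coding genes (0.0583%). The same window had 1 mismatch in TAS3B and 4 in TAS3C.

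ARF11 (AT2G46530), a class B factor related to ARF18 and ARF9, had the largest fold change among the ARFs. Its level was 18.0, 27.3, 27.2 and 33.8 CPM in epidermis and 6.61, 6.96, 19.0 and 6.14 CPM in mesophyll. Only mesophyll 3 reached the lowest epidermis library, so the ranges overlapped by that library alone. This difference was 1.602 on the log2 scale (SE 0.49, unadjusted p = 0.0113, adjusted p = 0.220 with edgeR). DESeq2 called it, with a log2 fold change of 1.62 and an adjusted p of 0.0196. Its relatives did not share the difference in size. ARF18 had a log2 fold change of 0.41 (SE 0.43) and ARF9 one of -0.05 (SE 0.41). Whether ARF11 differs from them in this was not tested, nor was the part of endosperm in its values. The RefSeq transcript of ARF9 held a run of 25 identical bases, all A or all T, longer than in any other member. That transcript is 2998 bases long and the counted model 2509, and whether the run lies in the counted model was not examined. The part of such a run in the ARF9 counts was not tested.

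**Figure D2:**
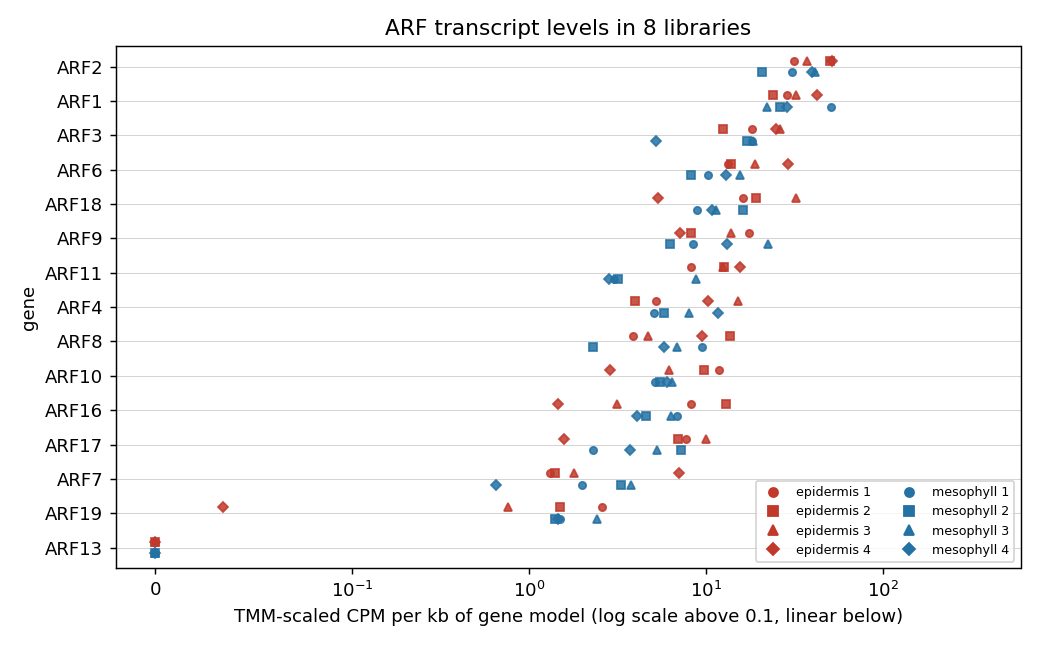
TMM-scaled CPM per kb of gene model for the 15 ARFs, 1 symbol per library, red for epidermis and blue for mesophyll, on an axis that is logarithmic above 0.1 and linear below. ARF2 and ARF1 are at the top, ARF13 has no pair in any library, and for each of the other genes the ranges of the red and blue symbols overlap.

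Class C ARFs are targets of miR160, whose loss of control over ARF17 or ARF10 disturbs embryo and leaf development. The microRNA and its 3 sites are printed with capitals as for miR167.
miR160a (chr2:16340282-16340302, + strand): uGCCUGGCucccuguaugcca
ARF10 site (chr2:12115741-12115761, + strand): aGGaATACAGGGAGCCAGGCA
ARF16 site (chr4:14704141-14704161, - strand): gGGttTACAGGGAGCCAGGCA
ARF17 site (chr1:29274189-29274209, + strand): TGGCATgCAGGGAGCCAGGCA
These 3 sites, with 2, 3 and 1 mismatches, were the only ones among 27444 coding genes (0.0109%) at up to 4 mismatches. miR160b and miR160c had the same sequence as miR160a. MIR160A had no pair in any library, and the precursors MIR160B and MIR160C were at 0.41 CPM or less. The counted models of MIR160A, MIR160B and MIR160C were 79, 81 and 81 bases long, shorter than a read. The part of model length in these low counts was not tested.

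The class C genes varied more among the epidermis libraries than among the mesophyll libraries. Their sum was 27.9, 29.8, 19.4 and 5.90 CPM per kb in epidermis and 14.3, 17.4, 18.2 and 13.9 CPM per kb in mesophyll. Epidermis 4 was the lowest of all 8 libraries for each of ARF10, ARF16 and ARF17, at 6.48, 3.46 and 3.26 CPM. That library was the lowest for 10 of the 30 tested members, and the share over all genes was not computed. Epidermis 1 held the highest ARF10 level, epidermis 2 the highest ARF16 level and epidermis 3 the highest ARF17 level. The log2 fold changes were 0.23 (SE 0.56), -0.20 (SE 0.66) and 0.35 (SE 0.70), and none was called.

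Aux/IAA proteins are short-lived because of their degron. The core of the degron was searched for in the RefSeq coding sequences as the codons for glycine, tryptophan, proline and proline, and it was found in 23 of the 29 Aux/IAA members. It was absent from IAA20, IAA30, IAA31, IAA32, IAA33 and IAA34, the non-canonical members. Among all 27444 coding genes 34 held it (0.124%). The stretches of the 5 most abundant Aux/IAA genes per kb are shown, 30 bases each with the 12 bases of the core in capitals, since these are the canonical messages with the highest levels.
IAA8 (chr2:9637725-9637754, + strand): caggttgttGGTTGGCCTCCAatcagatca
IAA9 (chr5:26255104-26255133, + strand): caaattgtcGGTTGGCCTCCAgtgagatcc
IAA12 (chr1:1241058-1241087, + strand): caagtggtaGGATGGCCACCAattgggtta
IAA18 (chr1:19306231-19306260, + strand): ccagtggtgGGATGGCCTCCGgttcgatcc
IAA26 (chr3:5613662-5613691, - strand): ccagtggtgGGTTGGCCTCCGgttcgttcg
The 23 genes spelled the core in 14 ways, and IAA8 and IAA9 shared one spelling. Aux/IAA proteins recruit TOPLESS through a repression motif of leucines at every other position. This letter pattern, searched at any place in the translated sequences, was present in 28 of the 29, all but IAA33. It was present in 3 of the 15 ARFs. Its share over all coding genes was not computed, and a match of letters does not show a working motif.

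IAA8 (AT2G22670) dominated the Aux/IAA transcripts of both tissues. Its level was 496, 572, 478 and 444 CPM in epidermis and 394, 411, 478 and 434 CPM in mesophyll. All 8 libraries lay close together and the ranges overlapped. Its log2 fold change was 0.21 (SE 0.16, adjusted p = 0.706 with edgeR). Per kb IAA8 was at 305 ± 33.3 in epidermis and 263 ± 22.5 in mesophyll, which was 49.5 to 65.4% of the summed Aux/IAA level in epidermis and 44.8 to 48.0% in mesophyll.

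IAA9 (AT5G65670), which restrains leaf growth and belongs to the same clade, came next. It was at 120, 116, 176 and 97.3 CPM in epidermis and 134, 142, 143 and 115 CPM in mesophyll. The mesophyll libraries lay within the range of the epidermis libraries, and the log2 fold change was -0.09 (SE 0.19, adjusted p = 0.913 with edgeR). IAA8 exceeded IAA9 per kb by between 2.71 and 4.90 times over the 8 libraries. Their relative IAA27 was at 11.2 ± 3.89 CPM per kb in epidermis and 14.0 ± 3.27 in mesophyll.

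IAA12 (AT1G04550), named above as the partner of ARF5, was at 15.6, 46.7, 67.1 and 69.8 CPM in epidermis and 59.6, 65.4, 63.5 and 42.8 CPM in mesophyll. Epidermis 1 was well below the other 7 libraries. Its log2 fold change was -0.39 (SE 0.42, adjusted p = 0.818 with edgeR), and it was 0.10 without replicate 1. IAA13, whose predicted protein was 79.1% identical to that of IAA12, was at 7.30, 14.2, 8.18 and 40.1 CPM in epidermis and 6.57, 8.51, 6.67 and 4.89 CPM in mesophyll. It was highest in epidermis 4, and its log2 fold change was 0.99 (SE 0.70, adjusted p = 0.687 with edgeR). The per-kb ratio of IAA12 to IAA13 ranged from 1.75 to 8.24 in epidermis and from 7.72 to 9.57 in mesophyll.

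IAA18 (AT1G51950) and IAA26 (AT3G16500) are paralogs, with predicted proteins 72% identical, and both had lower means in epidermis. IAA18, known from dominant mutants with fused or missing cotyledons, was at 10.9, 14.4, 14.9 and 25.7 CPM in epidermis and 49.4, 25.4, 47.0 and 66.7 CPM in mesophyll. Only epidermis 4 reached the lowest mesophyll library, replicate 2, by less than 1 CPM. On the log2 scale the fold change was -1.51 (SE 0.33, unadjusted p = 0.0018, adjusted p = 0.0873 with edgeR). Over the alternatives run, the adjusted p ranged from 0.00219 to 0.319 and the log2 fold change from -1.81 to -1.28. Calls were made by the likelihood ratio test and DESeq2, and, with no term for replicate number, without epidermis replicate 4 (log2 fold change -1.81, adjusted p = 0.0387, with 1.5% of all genes called) and without mesophyll replicate 2 (-1.72, adjusted p = 0.0462, with 1.61%).

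IAA26, also known as a phytochrome-associated protein, was at 22.1, 34.8, 41.5 and 45.8 CPM in epidermis and 83.4, 53.4, 75.2 and 96.3 CPM in mesophyll. It was the one tested member whose ranges did not overlap. Its fold change was -1.11 on the log2 scale (SE 0.28, unadjusted p = 0.0037, adjusted p = 0.127 with edgeR). Over the alternatives run, the adjusted p ranged from 0.00918 to 0.319, with calls by DESeq2 and the likelihood ratio test with and without the replicate term. IAA26 exceeded IAA18 per kb in all 8 libraries, by between 1.69 and 3.27 times, and both were lowest in epidermis 1 and highest in mesophyll 4. Photosynthetic markers were also lower in epidermis, at 10399 to 15946 CPM against 17229 to 19371 CPM, and their part in the values of IAA18 and IAA26 was not tested. In microdissected tissue fewer cells of a type and less transcript per cell cannot be told apart.

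**Figure D3:**
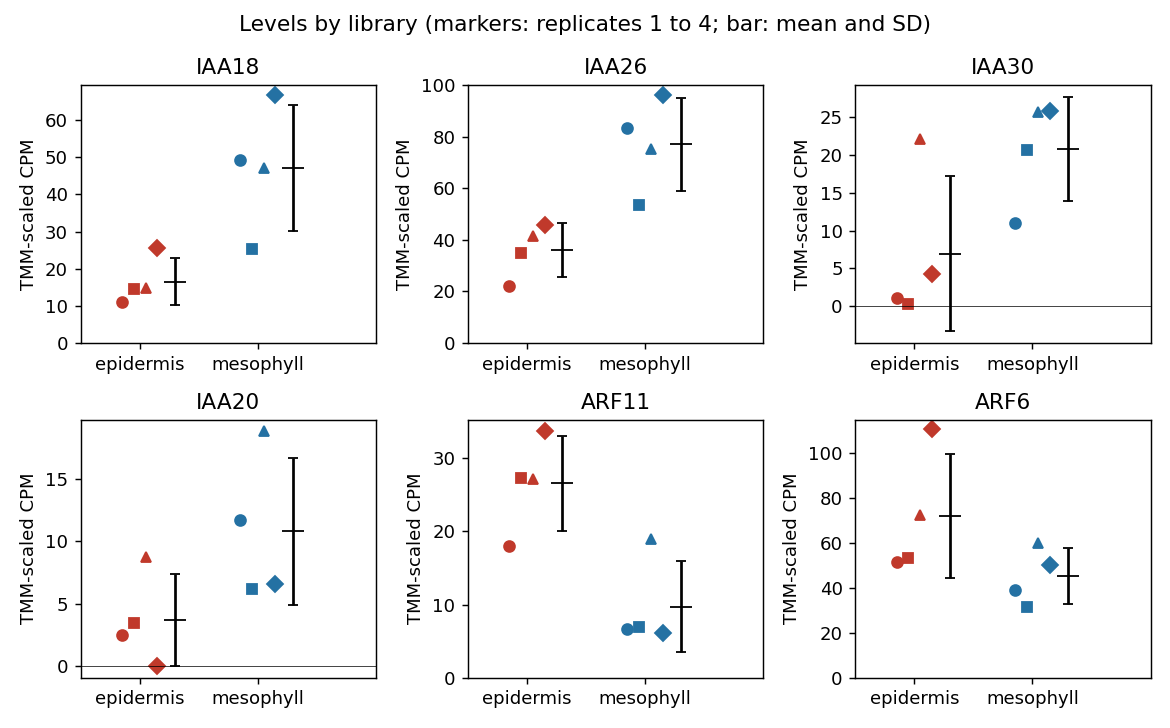
TMM-scaled CPM of IAA18, IAA26, IAA30, IAA20, ARF11 and ARF6 in each library (circles, squares, triangles and diamonds for replicates 1 to 4), with the mean and SD as a black bar. IAA26 is the only gene of the 6 with no overlap between tissues, and IAA30 shows epidermis 3 at 22.0 CPM, among the mesophyll values.

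The non-canonical Aux/IAA genes lack the degron core, and their proteins are long-lived. IAA20 (AT2G46990) and IAA30 (AT3G62100), paralogs with predicted proteins 85.4% identical that act in vascular and root development, were the 2 of 6 that were tested. IAA30 was at 1.09, 0.321, 22.0 and 4.33 CPM in epidermis and 11.0, 20.6, 25.6 and 25.7 CPM in mesophyll. Epidermis 3 was within the mesophyll range, while the other 3 epidermis libraries were below it. The fitted log2 fold change was -2.96 (SE 0.996, unadjusted p = 0.0175, adjusted p = 0.265 with edgeR). It was -1.58 with no term for replicate number (adjusted p = 0.615), and -3.43 when epidermis 3 was also left out (adjusted p = 0.108). With the replicate term it was called by the likelihood ratio test (-2.97, adjusted p = 0.0435) and by DESeq2 (-2.96, adjusted p = 0.00249).

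IAA20 was at 2.46, 3.42, 8.76 and 0 CPM in epidermis and 11.7, 6.17, 18.9 and 6.59 CPM in mesophyll, values given after they were seen. Epidermis 3 was again the highest epidermis library and within the mesophyll range. Its log2 fold change was -2.37 (SE 1.40, adjusted p = 0.613 with edgeR). Procambium markers, at 39.6, 84.8, 205 and 214 CPM in epidermis and 166 to 291 CPM in mesophyll, were low in epidermis 1 and 2, where IAA20 and IAA30 were low too, but not in epidermis 4, where IAA20 had no pair and IAA30 was at 4.33 CPM. Their part in the values of IAA20 and IAA30 was not tested. IAA31, IAA32 and IAA34 reached at most 2.15, 1.85 and 1.03 CPM in any library. In the RefSeq annotation 47.6% of the 100-base words of IAA32 and 2.91% of those of IAA34 also lie in an overlapping neighbour gene. The RefSeq models of IAA32 and IAA34 are 1625 and 993 bases long, and the counted models 872 and 558. Whether the shared words lie in the counted models was not examined. Pairs that fit 2 gene models equally well had been removed, and the part of this in the low counts was not tested.

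**Figure D4:**
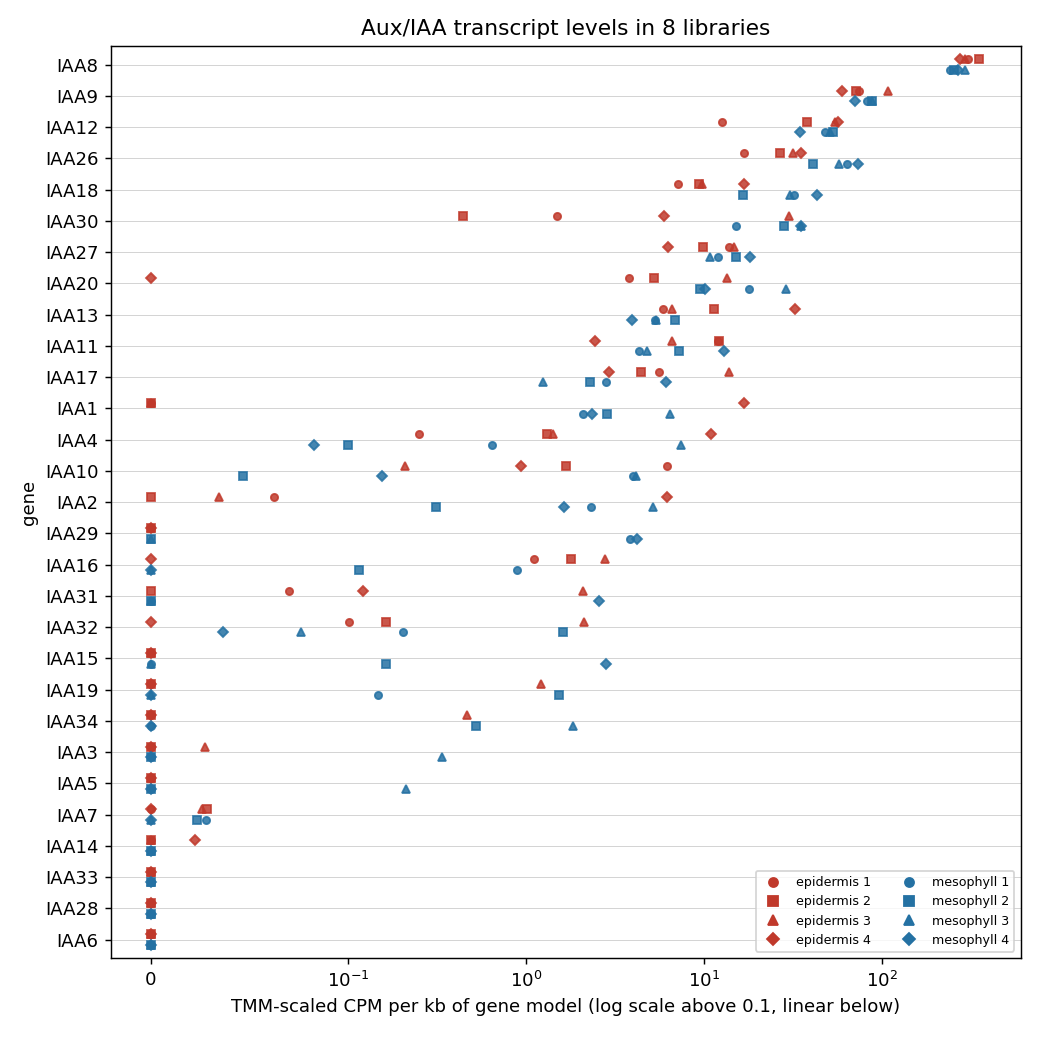
TMM-scaled CPM per kb of gene model for the 29 Aux/IAA genes, 1 symbol per library as in the plot of ARF levels, on an axis that is logarithmic above 0.1 and linear below. IAA8 stands above all others, IAA18, IAA26 and IAA30 have most blue symbols to the right of the red ones, and IAA1, IAA2 and IAA4 each have 1 red diamond, epidermis 4, far from the other red symbols.

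Several canonical Aux/IAA genes had few pairs. IAA1 (AT4G14560) was at 0, 0, 0 and 14.0 CPM in epidermis and 1.74, 2.37, 5.37 and 1.96 CPM in mesophyll, and it too was singled out after its values were seen, as were IAA2 and IAA4. Epidermis 4 alone held IAA1 transcript among the epidermis libraries, and it was also the highest of all 8. The fitted log2 fold change was -6.86 (SE 3.05, adjusted p = 0.441 with edgeR), but 0.29 with no term for replicate number. With epidermis replicate 4 left out and no such term it was -9.47 (adjusted p = 0.0412), a fitted value against 3 libraries at 0 and not a bound. DESeq2 called it as well, at a log2 fold change of -7.58.

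IAA2, 80% identical to IAA1 in predicted protein, and IAA4 also had their highest epidermis value in epidermis 4, at 5.85 and 12.8 CPM. In mesophyll IAA1, IAA2 and IAA4 all had their highest value in mesophyll 3, at 5.37, 4.88 and 8.62 CPM. IAA29 (AT4G32280), induced by shade and warmth in seedlings, had no pair in epidermis and was at 3.77, 0, 0 and 4.15 CPM in mesophyll, below the filter. Among the other canonical genes IAA17 (AXR3), known from an auxin-resistant mutant, was at 6.70 ± 4.87 CPM per kb in epidermis and 3.11 ± 2.09 in mesophyll, and IAA11 at 8.29 ± 4.68 and 7.28 ± 3.93. IAA10 and IAA16 were lower, at 2.25 ± 2.70 and 1.41 ± 1.16 CPM per kb in epidermis and 2.08 ± 2.29 and 0.251 ± 0.429 in mesophyll. None of these 4 was called, and the spread within each tissue was close to or above the mean for IAA10 and IAA16. IAA15 and IAA19 reached at most 1.51 and 1.49 CPM in any library. Pairs of IAA3 (SHY2), IAA5, IAA7 and IAA14 (SOLITARY-ROOT) stayed at or below 0.398 CPM in each library. For IAA3 and IAA10 the annotation overlaps a neighbour gene, which shares 33.4% and 19.6% of their 100-base words, and the part of this in their low counts was not tested.

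The spread between libraries was compared as well. The coefficient of variation was larger in epidermis than in mesophyll for 23 of the 30 tested members, beside 10434 of all 15794 tested genes, with medians of 57.0% and 39.8%. Over all tested genes, the medians were 43.7% and 32.6%. The class B ARFs went the other way, with medians of 31.1% in epidermis and 40.4% in mesophyll and a larger value in epidermis for 2 of the 7. Of the 30 tested members 9 were highest in epidermis 4 and 10 were lowest there. For all tested genes that library held the highest value for 21.7%. The share of all tested genes that were lowest there was not computed.

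The last comparison within the families was that of repressor to response factor transcripts. The 29 Aux/IAA genes summed to 465, 545, 593 and 525 CPM per kb in epidermis and 539, 526, 632 and 588 CPM per kb in mesophyll, and these ranges overlapped. The 15 ARFs summed to between 174.8 and 215.1 CPM per kb in epidermis and between 128.2 and 179.2 in mesophyll. The ratio of the sums was 2.66, 2.85, 2.76 and 2.52 in epidermis and 3.31, 4.10, 3.53 and 3.99 in mesophyll, and these ranges did not overlap. This ratio depended on which genes were summed. With ARF5 added to the ARF sum it was 2.31 to 2.78 in epidermis and 2.58 to 3.404 in mesophyll, and the ranges overlapped. They overlapped too when IAA18, IAA26 and IAA30 were left out, at 2.24 to 2.66 and 2.63 to 3.44. Without IAA8 they stayed apart, at 0.920 to 1.39 and 1.83 to 2.18. The same held without IAA8 and with ARF5 added, at 0.881 to 1.24 and 1.42 to 1.86. Against the activator ARFs alone the ratio was 11.5 to 22.6 in epidermis and 22.0 to 34.4 in mesophyll, with overlap. With ARF5 added to the activators it was 16.1, 15.3, 11.1 and 8.17 in epidermis and 7.77, 12.6, 8.71 and 12.5 in mesophyll, so that the highest values were then in epidermis. These sums were formed from chosen members and are given without a test. The gene models of the ARFs are longer than those of the Aux/IAA genes. The study's methods give a slightly lower mean RNA integrity for epidermis than for mesophyll. The part of RNA integrity in ratios of long to short genes was not tested.

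**Figure D5:**
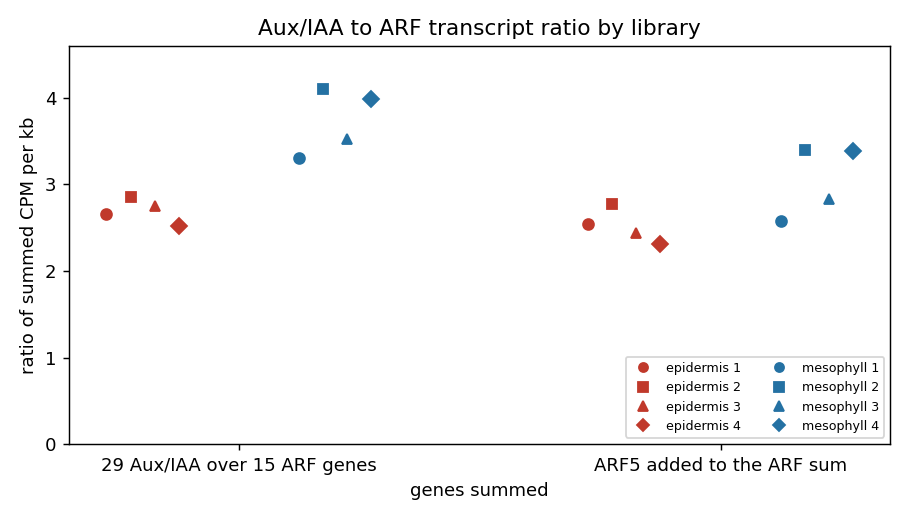
Ratio of summed Aux/IAA to summed ARF level (CPM per kb) in each of the 8 libraries, for the members as given and with ARF5 added to the ARF sum. On the left all 4 mesophyll libraries lie above all 4 epidermis libraries, and on the right mesophyll 1 at 2.58 falls among the epidermis values.

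Many Aux/IAA promoters carry auxin response elements, the sites ARF proteins bind. The element TGTCTC, searched on both strands in the 250 bases before and 50 bases after the annotated start, was present in 12 of the 29 Aux/IAA genes and 1 of the 15 ARFs, beside 14.2% of coding genes. The element TGTCGG was present in 6 Aux/IAA genes and 2 ARFs, beside 5.12% of coding genes. A match of these letters is a description of the sequence only.

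The other genes of the pathway were read from 8 lists, of which 54 genes were tested and 1 was called, beside 1.08% of all genes, or 0.981% for calls higher in epidermis. The likelihood ratio test called 6 (5.2% of all genes) and DESeq2 9 (8.36%). The gene called by the quasi-likelihood test was SAUR32, a member of the family of small auxin-upregulated RNAs that act in hypocotyl hook bending. It was at 38.3, 26.1, 25.4 and 66.0 CPM in epidermis and 2.63, 3.89, 1.49 and 3.76 CPM in mesophyll, with no overlap. Its log2 fold change was 3.71 (SE 0.46, adjusted p = 0.00957 with edgeR). It missed the threshold without replicate 1 (adjusted p = 0.0677) and without replicate 3 (0.0621). Endosperm markers were also higher in epidermis, at 173 to 297 CPM against 17.6 to 72.7 CPM, and their part in this difference was not tested. Of the 22 responsive genes on that list, 7 were tested. LBD18, a transcription factor of lateral root formation, was at 7.30, 7.06, 16.7 and 27.8 CPM in epidermis and 0.142, 1.37, 0 and 0.161 CPM in mesophyll. Its fitted log2 fold change was 6.27 (SE 1.62, adjusted p = 0.144 with edgeR's quasi-likelihood test). It was called by the likelihood ratio test with the replicate term (adjusted p = 0.00108) and without it (0.00203), by DESeq2 (9.25e-08), and without mesophyll replicate 2 and with no replicate term (0.0244). For LBD18, too, the part of endosperm was not tested.

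ARF5 (MONOPTEROS) was the one tested gene among the 8 ARFs that are not members, and the other 7 had no pair in any library. It was at 26.1, 17.2, 92.3 and 63.1 CPM in epidermis and 156, 88.9, 148 and 87.9 CPM in mesophyll. Epidermis 3 was just above the lowest mesophyll libraries, and epidermis 1 and 2 were far below them. Its log2 fold change was -1.52 (SE 0.40, adjusted p = 0.154 with edgeR's quasi-likelihood test), and it was called by the likelihood ratio test (adjusted p = 0.0111) and DESeq2 (0.0011). Procambium markers were low in the same epidermis libraries, and their part was not tested.

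All 12 listed genes of the receptors and the SCF ligase were tested, and none was called by the quasi-likelihood test, the likelihood ratio test or DESeq2. TIR1 was at 24.8 CPM per kb in epidermis and 29.9 in mesophyll, and AFB2 at 25.5 and 21.7. AFB1 was scarce, at 2.87, 0.748, 4.09 and 0 CPM in epidermis and 3.06, 1.70, 0.133 and 0.289 CPM in mesophyll. CUL1, the cullin scaffold of the ligase, was at 130, 140, 151 and 112 CPM in epidermis and 74.9, 86.2, 112 and 95.5 CPM in mesophyll, with a log2 fold change of 0.54 (SE 0.19, adjusted p = 0.288 with edgeR). AXR1, which activates the cullin, had one of -1.02 (SE 0.58, adjusted p = 0.593). The 5 TOPLESS corepressors were all tested and none was called by these 3 tests, with values of -0.61 (SE 0.40) for TPR1 and -0.25 (SE 0.34) for TPR2.

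In the small RNA pathway that controls ARFs, 7 of 17 listed genes were tested and none was called by the quasi-likelihood test. TAS3C was at 57.6, 66.7, 50.6 and 17.4 CPM in epidermis and 9.56, 11.4, 4.64 and 10.13 CPM in mesophyll. All epidermis libraries were above all mesophyll libraries. It differed by 2.36 on the log2 scale (SE 0.49, adjusted p = 0.0715 with edgeR's quasi-likelihood test). It was called in 10 of 22 alternatives, among them the likelihood ratio test (adjusted p = 0.000304), DESeq2 (2.54e-05), the filter of 10 CPM (0.042), the fit with no replicate term (0.0182) and the fit without replicate 4 (2.86, adjusted p = 0.0161, with 0.938% of all genes called). The TAS3 targets ARF2, ARF3 and ARF4 had log2 fold changes of 0.38, 0.54 and 0.06, none of them called. TAS3A was at 103 CPM per kb in epidermis and 61.2 in mesophyll. The part of endosperm in the TAS3C and TAS3A levels was not tested. AGO10, which sequesters a microRNA of leaf polarity, had a log2 fold change of -0.52 (SE 0.18, adjusted p = 0.262).

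Of the genes that make, move and inactivate auxin, none was called by the quasi-likelihood test. The likelihood ratio test called LAX2 and GH3.2, and DESeq2 called LAX2, GH3.2, GH3.3 and WAG1, a kinase gene of auxin transport. For synthesis 5 of 14 were tested, and the log2 fold change was -0.97 for YUC4 (SE 0.45, adjusted p = 0.471) and 1.18 for TAA1 (SE 0.60, adjusted p = 0.525). For transport 10 of 18 were tested. The influx carrier LAX2 was at 12.5, 14.0, 67.2 and 67.2 CPM in epidermis and 74.4, 74.8, 124 and 83.0 CPM in mesophyll, with no overlap. Its log2 fold change was -1.54 (SE 0.42), with an adjusted p of 0.165 in edgeR's quasi-likelihood test, 0.0145 in the likelihood ratio test and 0.00228 in DESeq2. Procambium markers were at 39.6, 84.8, 205 and 214 CPM in epidermis, low in the same replicates 1 and 2, and their part was not tested. ABCB19, an efflux transporter, had a log2 fold change of 0.82 (SE 0.30, adjusted p = 0.313). For conjugation and oxidation 7 of 12 were tested. The auxin-induced enzymes GH3.2 and GH3.3 conjugate auxin to amino acids. Their log2 fold changes were -1.54 for GH3.2 (SE 0.41, adjusted p = 0.159) and -1.56 for GH3.3 (SE 0.58, adjusted p = 0.323). Without epidermis replicate 3 and with no replicate term GH3.2 was called, at -2.19 (adjusted p = 0.0308, with 1.71% of all genes called).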

How the data were processed

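Per the labels and the study's methods, poly(A) RNA from microdissected tissue was amplified with a SMART-Seq v4 kit, and the authors trimmed the reads, removed ribosomal sequences and aligned pairs with Bowtie2 to TAIR10 representative gene models. The submitters' processing notes also name TopHat2. What was deposited are raw counts, in read pairs for each gene model, with reads that fit 2 models equally well removed. The files also hold model lengths, and counts of reads taken singly, used in 1 alternative. Amplification without molecular identifiers makes reads non-independent.

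Genes reaching 1 CPM in 4 or more of the 8 libraries were TMM-scaled and fitted in edgeR 4.0.16 (R 4.3.3) with replicate number and tissue, with the quasi-likelihood test in its legacy form on all 15794 genes. The study's own test, a likelihood ratio test, and DESeq2 1.42.0 were alternatives. The script was tested on simulated data. Libraries of a tissue differed beyond sampling noise (88.1 to 263 chi-square units for each degree of freedom).

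The members, the lists of pathway and marker genes and the alternatives were chosen with earlier results of these data known. Named were called members, members with an unadjusted p of 0.05 or less, the 3 ARFs and 5 Aux/IAA genes highest per kb, a member without pairs in one tissue, and up to 2 genes per pathway list by smallest p, besides called ones. Other members named with values were chosen after these were seen. Sequences, coordinates and symbols are from RefSeq for TAIR10.1, which matched 32835 of 33602 identifiers. The files hold no coordinates. Its models differ from those counted, with equal lengths for 7 of the 44 members.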

Additional observations from a re-analysis of the deposited data

Results flagged for a closer look

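In each tissue the highest and lowest of the 4 libraries was compared with its nearest neighbour for the 30 tested members. By Dixon's criterion, 9 of these 60 groups held a library that stood apart from the other 3. The criterion's rate of about 1 in 20 holds for normally distributed values. CPM with values at or near 0 are not of that kind, so the 9 cannot be read against that rate. The share over all tested genes was not computed. Of the 9 flagged values, 4 were in epidermis 4. ARF7 was at 30.8 CPM there while the next library was at 7.76 CPM, IAA1 at 14.0 CPM beside 0 in the other 3, IAA2 at 5.85 CPM beside 0.0587 CPM, and IAA4 at 12.8 CPM beside 1.66 CPM. In mesophyll 3, ARF11 was at 19.0 CPM beside 6.96 CPM, ARF19 at 9.48 CPM beside 5.83 CPM, and IAA4 at 8.62 CPM beside 0.746 CPM. ARF3 was at 12.3 CPM in mesophyll 4 while the next library was at 40.6 CPM, and IAA16 at 1.14 CPM in mesophyll 1 beside 0.146 CPM.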

How the results depend on the processing

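The members and the 54 tested pathway genes were recomputed under 22 alternatives. The count of called members, 0 as reported, was 3 with the likelihood ratio test (IAA18, IAA26 and IAA30, with 5.2% of all genes called), 5 with DESeq2 (ARF11 higher, and IAA1, IAA18, IAA26 and IAA30 lower, with 8.36%), and 2 with the likelihood ratio test and no replicate block (IAA18 and IAA26, with 4.39%), an alternative chosen after seeing the data. It was 0 to 2 with 1 library left out and 0 with 1 replicate number left out. The count of called pathway genes, 1 as reported, was 2 with no replicate block, 6 with the likelihood ratio test, 9 with DESeq2, 2 with a filter of 10 CPM, 3 with the likelihood ratio test and no block, and 0 to 3 with 1 library or replicate number left out. The cause of these shifts was not tested.

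Signs turned for 4 named members, none called as reported. ARF1 was at -0.0072 with no block (with either test) and -0.0062 with upper quartile scaling, between -0.138 and 0.33 with a replicate number left out, and at -0.0095, -0.174, -0.0926, -0.146 and -0.0544 with epidermis 3 or 4 or mesophyll 2, 3 or 4 left out. IAA9 was at 0.0485 without epidermis 4. IAA12 was at 0.0885 without epidermis 1, and between -0.77 and 0.10 with a replicate number left out. IAA1 was at 0.295 with no block (with either test), at 0.708, 0.707 and 0.711 without epidermis 1, 2 or 3, and at 0.118, 0.214, 0.794 and 0.15 without mesophyll 1 to 4. The numbers were not shown to pair the libraries, since the correlation of their residuals across genes was 0.0102, -0.0019, 0.0702 and -0.0102 for numbers 1 to 4 and 1 of 4 matched its own number best. For the 14 untested members no difference could be tested here, and for the 4 without any pair low depth and absent transcript cannot be told apart.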
